A study of Mus musculus with 57 samples.

Results

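The 10 fetal macrophage genes described here are *Csf1r*, *C1qa*, *C1qb*, *C1qc*, *Adgre1*, *Mrc1*, *Cx3cr1*, *F13a1*, *Cd163* and *Csf3r*. They were named as genes with a known place in macrophages, with earlier results of these data known, and no measured value enters the rule. They are 10 of the 56860 genes in the deposited tables. Each was followed in every library of 7 biological contexts in wild-type (wt) and *Hoxa5*-/- mouse embryos.

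Tissue macrophages of the mouse embryo come from yolk sac and fetal liver progenitors, settle in each organ as it forms, and clear dying cells while the organ is remodelled. *Csf1r* encodes the receptor for CSF1 and IL-34, the growth factors on which most of these cells depend, and *Csf3r* encodes the receptor for G-CSF, best known from neutrophils. *C1qa*, *C1qb* and *C1qc* encode the subunits of the complement component C1q, which macrophages secrete. *Adgre1* encodes F4/80, *Mrc1* the mannose receptor CD206, *Cd163* the receptor for haemoglobin bound to haptoglobin and *Cx3cr1* the fractalkine receptor. *F13a1* encodes the A subunit of coagulation factor XIII, a transglutaminase also made by macrophages and megakaryocytes.

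Polyadenylated RNA was sequenced from whole tissues of embryos on a 129/Sv background, and *Hoxa5*-/- embryos carried the *Hoxa5* tm1Rob null allele, in which a neomycin cassette sits in the homeobox, so that *Hoxa5* exons could still be counted. Trachea at E15.5, lung at E12.5, lung at E15.5, diaphragm at E15.5 and C3-T2 somites at E12.5 each had 4 wt and 4 *Hoxa5*-/- libraries. The earlier somite stage, E10.5, was represented by 4 wt libraries against 3 *Hoxa5*-/- ones, and iBAT, the brown fat pad between the shoulder blades taken at E18.5, by 5 of each genotype. All were called biological replicates by the study. Trachea, lung and diaphragm were sequenced single-end at one centre, and somites and iBAT paired-end at another, so a difference in level between the first 4 contexts and the other 3 cannot be told apart from a difference between centres.

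Total counts per library ranged from 18369905 to 72991481. *Hoxa5* was lower in mutants in all 7 contexts, by a log2 fold change of -0.92 in somites at E10.5 and of -1.61 to -1.94 in the other 6 (adjusted p of 0.0475 or lower). Wt libraries carried the markers of their labelled tissue. Summed TPM (transcript level per length, relative to the library) of 5 brown fat genes was 6483 to 11870 in iBAT, that of 5 skeletal muscle genes was 16520 to 33220 in diaphragm, and that of 5 lung genes was 658 to 808 in the earlier lung libraries and 3544 to 9349 in the later ones. The 5 trachea genes were less specific, at 1026 to 1404 in trachea and 1472 to 1990 in somites at E12.5. In lung, 2 mutant libraries had a low sum of the macrophage genes, *Hoxa5*-/- replicate 1 at E12.5 (83.1 TPM, with the next mutant at 147.1) and *Hoxa5*-/- replicate 4 at E15.5 (155.1, with the next at 214.1). The latter also had the lowest total count of its stage, 20692978 against 29702712 or more. Neither gap passed Dixon's test for single libraries, and the main genotype results of each stage are also given without its library. In whole tissue, fewer macrophages and less RNA of a gene per macrophage cannot be told apart.

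On the GRCm39 assembly used by the authors, *C1qb* (chr4:136607440-136613498), *C1qc* (chr4:136617115-136620376) and *C1qa* (chr4:136623228-136626114) lie next to each other on the minus strand, and *Csf3r* is on the plus strand of the same chromosome at chr4:125918343-125938233. The plus strand also holds *Csf1r* (chr18:61233670-61265221), *Adgre1* (chr17:57665691-57790527), *Mrc1* (chr2:14234203-14336868) and *Cd163* (chr6:124281615-124307486). *Cx3cr1* (chr9:119730682-119898945) and *F13a1* (chr13:37051152-37234220) are on the minus strand. Counted exon length ran from 1040 bases for *C1qa* to 6741 for *F13a1*. *Csf1r* shares 873 exon bases with *Hmgxb3* on the opposite strand, and since the strand setting of the counting is not given in the sources used here, some *Csf1r* reads could belong to *Hmgxb3*. For *Cx3cr1* and *F13a1* the shared bases were 78 and 74, with noncoding genes of at most 15 counts in any library.

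Promoter windows of 250 bases before the start site were available from RefSeq (GRCm38.p6, an older build than that of the count tables) for 7 of the 10 genes, with 8 windows because *F13a1* had 2. Promoters of *Csf1r*, *C1qa* and *Adgre1* had no entry. The windows printed here belong to the pairs that varied most closely together across libraries (*C1qb* with *C1qc* and *Mrc1* with *F13a1*) and to *Csf3r*, which varied apart from them in the respiratory tissues. Capitals mark GAGGAA, the core bound by PU.1 (*Spi1*), the main transcription factor of the macrophage lineage, or its reverse complement TTCCTC. The other *F13a1* window and those of *Cd163* and *Cx3cr1*, which held no such letters, are not printed.

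C1qb, chr4:136886201-136886450, minus strand: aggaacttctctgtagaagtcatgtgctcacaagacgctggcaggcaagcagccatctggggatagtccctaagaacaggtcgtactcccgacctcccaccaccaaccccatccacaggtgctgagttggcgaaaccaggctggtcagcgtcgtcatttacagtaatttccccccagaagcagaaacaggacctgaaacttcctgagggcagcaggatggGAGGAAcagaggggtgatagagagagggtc
C1qc, chr4:136892915-136893164, minus strand: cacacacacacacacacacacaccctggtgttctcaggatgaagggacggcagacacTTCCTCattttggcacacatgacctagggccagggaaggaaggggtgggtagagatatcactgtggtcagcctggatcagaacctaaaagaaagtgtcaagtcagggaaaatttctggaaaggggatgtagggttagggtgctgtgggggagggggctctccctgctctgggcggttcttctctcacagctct
Mrc1, chr2:14229164-14229413, plus strand: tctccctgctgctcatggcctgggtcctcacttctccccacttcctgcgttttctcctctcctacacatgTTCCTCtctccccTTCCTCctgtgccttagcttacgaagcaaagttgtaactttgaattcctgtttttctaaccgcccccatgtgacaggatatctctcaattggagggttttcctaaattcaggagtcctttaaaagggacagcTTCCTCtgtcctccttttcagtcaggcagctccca
F13a1, chr13:37050245-37050494, minus strand: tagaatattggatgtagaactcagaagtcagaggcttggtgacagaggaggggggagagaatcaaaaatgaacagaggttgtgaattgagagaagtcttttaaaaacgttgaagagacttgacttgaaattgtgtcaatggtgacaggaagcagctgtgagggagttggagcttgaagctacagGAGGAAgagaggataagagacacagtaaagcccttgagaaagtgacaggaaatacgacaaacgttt
Csf3r, chr4:126024409-126024658, plus strand: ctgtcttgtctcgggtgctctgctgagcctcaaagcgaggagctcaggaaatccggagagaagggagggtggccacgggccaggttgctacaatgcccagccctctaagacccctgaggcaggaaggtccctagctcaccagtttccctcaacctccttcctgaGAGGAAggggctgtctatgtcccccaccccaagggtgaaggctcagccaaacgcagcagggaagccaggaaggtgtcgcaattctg

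The letters GAGGAA, on either strand, occurred in 5 of the 8 windows, and in 23.3% of all 32851 RefSeq promoter windows of that length. *Mrc1* had 3 matches, at -180, -167 and -35 from the start site, and the others had 1 each, at -30 in *C1qb*, -193 in *C1qc*, -66 in *F13a1* and -86 in *Csf3r*. Neither TTGCNNAA (C/EBP; 9.6% of all windows) nor TGCTGAC (core of the MAF element; 3.8%), searched on both strands, occurred in any of the 8, so no matches overlapped. A match describes the letters of the window and was not tested as a binding site.

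In wt embryos the 10 genes together made up the largest share of RNA in diaphragm and the smallest in somites at E10.5. Their summed level was 450.8 ± 53.6 TPM in diaphragm (SD, n = 4), 280.1 ± 66.3 in trachea (n = 4), 265 ± 25.4 in somites at E12.5 (n = 4), 229 ± 44.4 in iBAT (n = 5), 214 ± 8.78 in lung at E15.5 (n = 4), 154 ± 8.72 in lung at E12.5 (n = 4) and 24.1 ± 6.68 in somites at E10.5 (n = 4). *C1qb* was the most abundant of the 10 per length in every wt context, with means from 7.78 TPM in somites at E10.5 to 120.1 in diaphragm. The order of the contexts, with the libraries of both genotypes, is in the plot of the levels by library.

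**Figure D1:**
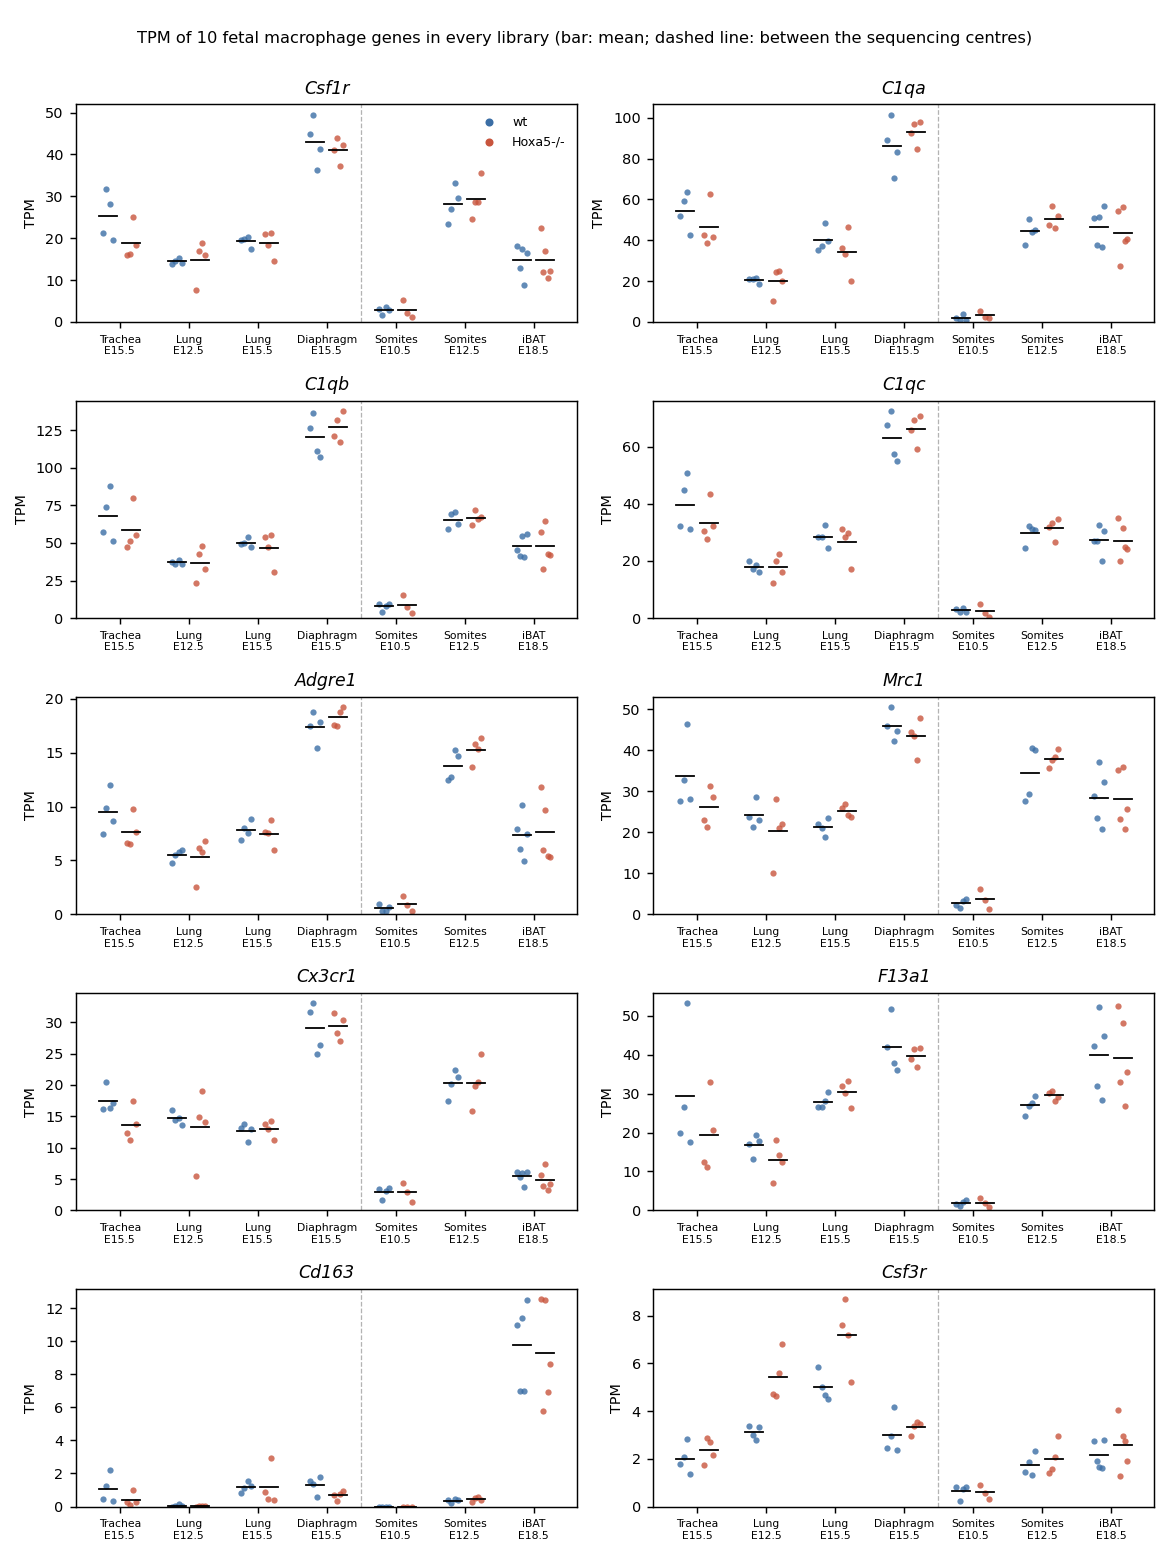
Level of each of the 10 genes (TPM, linear axes that start at 0 and differ between genes) in each of the 57 libraries by context, with wt in blue, *Hoxa5*-/- in red, a bar at each group mean and a dashed line between the sequencing centres. Somites at E10.5 hold the lowest wt mean of each gene, wt diaphragm the highest of 8 of them, iBAT the highest of *Cd163* and lung at E15.5 the highest of *Csf3r*.

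For 8 of the 10 genes the wt mean was highest in diaphragm. For *Csf1r*, the 3 C1q genes, *Adgre1* and *Cx3cr1* the 4 wt diaphragm libraries did not overlap those of any other context. *Mrc1* in wt diaphragm (42.2 to 50.6 TPM) did not overlap the next context, somites at E12.5, but trachea reached 46.3 TPM, within the diaphragm range. The share of all genes without such overlap is not given. *Csf1r* stood at 44.8, 49.5, 36.3 and 41.2 TPM in wt diaphragm, at 23.3, 26.97, 33.1 and 29.7 in somites at E12.5 and at 21.4, 31.8, 28.1 and 19.7 in trachea. It then ran 19.6, 19.8, 20.4 and 17.4 TPM in lung at E15.5, 18.1, 12.8, 17.4, 8.90 and 16.5 in iBAT, and 13.96, 14.6, 15.3 and 13.98 in lung at E12.5. From somites at E12.5 down to lung at E12.5 each context overlapped its neighbour, and only diaphragm at the top and somites at E10.5 at the bottom (3.14, 1.65, 3.63 and 2.76 TPM) were separate. *F13a1* had its highest wt mean in diaphragm as well (41.9 ± 7.004 TPM, n = 4), but there the iBAT libraries, at 39.9 ± 9.72 (n = 5), overlapped them.

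*Cd163* and *Csf3r* kept another order. *Cd163* ran 11.01, 6.98, 11.4, 6.97 and 12.49 TPM in wt iBAT, above every other wt library, of which the highest was at 2.19 TPM in trachea. It had 0 counts in all 7 somite libraries at E10.5, where 3 counts, the limit that a count of 0 allows, would be 0.0690 to 0.0811 TPM per library, counting error only. *Csf3r* was highest in wt lung at E15.5 (5.83, 4.998, 4.67 and 4.52 TPM), without overlap with lung at E12.5 (3.38, 3.0, 2.77 and 3.33), and lowest in somites at E10.5 (0.801, 0.244, 0.716 and 0.818). Between lung at E12.5 and somites at E12.5 neighbouring contexts overlapped for *Csf3r*.

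To follow the genes over lung development, wt lung at E15.5 was compared with wt lung at E12.5. Across all genes, a call required an adjusted p under 0.05 and a fold of at least 1.5, and 15.4% of 18158 genes were called higher and 9.15% lower at E15.5. Of the 10 macrophage genes, 5 rose: *Cd163* by a log2 fold change of 4.65 (SE 0.56, adjusted p 8.31e-05), *C1qa* by 0.93 (SE 0.12, adjusted p 0.000127), *F13a1* by 0.70 (SE 0.10, adjusted p 0.000215), *Csf3r* by 0.65 (SE 0.13, adjusted p 0.00258) and *C1qc* by 0.62 (SE 0.11, adjusted p 0.000954). The *Cd163* value rests on a summed 8 counts in the 4 wt libraries at E12.5, against 0.801, 1.14, 1.57 and 1.26 TPM at E15.5. *Csf1r* (0.38), *C1qb* (0.40), *Adgre1* (0.47) and *Cx3cr1* (-0.25) passed the adjusted p but not the fold, and *Mrc1* (-0.21, 95% interval -0.42 to -0.01) passed neither. The members' median was 0.55, with 8 of 10 above 0, against a median of -0.01 over all genes, of which 49.0% were above 0.

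*Cx3cr1* and *Mrc1* therefore had a negative sign where the other 8 had a positive one. *Cx3cr1* stood at 16.1, 14.4, 14.8 and 13.6 TPM at E12.5 and at 13.1, 13.8, 10.9 and 13.01 at E15.5, and the ranges overlapped. The calls of *Csf3r* and *C1qc* sat near the fold limit. That of *Csf3r* was lost without wt replicate 3 at E12.5 (0.58) or wt replicate 1 at E15.5 (0.57), and that of *C1qc* without wt replicate 4 at E12.5 (0.57) or wt replicate 3 at E15.5 (0.55). The *F13a1* call was lost when all libraries of the table were fitted together (0.67, adjusted p 0.0547 by edgeR).

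In wt trachea against wt lung at E15.5, 30.2% of 19340 genes were called in either direction and 2 of the 10 macrophage genes were. *Mrc1* was higher in trachea (log2 fold change 0.63, SE 0.16, adjusted p 0.0114) at 27.6, 32.7, 46.3 and 28.1 TPM, with every trachea library above the 4 of lung (21.99, 20.95, 18.8 and 23.5). Its call was lost without trachea wt replicate 3 (0.45) or lung wt replicate 3 (0.57). *Csf3r* was lower in trachea (-1.34, SE 0.23, adjusted p 0.00106), at 1.78, 2.06, 2.82 and 1.35 TPM, all below the lung libraries. The median over the 10 was 0.38, with 8 above 0, against 0.02 and 51.6% above 0 over all genes.

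In wt diaphragm, 20.9% of 18984 genes were called higher than in wt lung at E15.5 and 14.1% of 19730 higher than in wt trachea. Of the 10 macrophage genes, 8 were higher than in lung: *C1qb* (log2 fold change 1.57), *Cx3cr1* (1.5), *Csf1r*, *C1qc* and *Adgre1* (1.46 each), *Mrc1* (1.41), *C1qa* (1.40) and *F13a1* (0.90), with SEs of 0.08 to 0.14 and adjusted p values of 7.63e-05 or lower. *Cd163* (0.47, 95% interval -0.31 to 1.25) and *Csf3r* (-0.45, -0.86 to -0.03) were not called. Without diaphragm wt replicate 3 both were, *Cd163* at 0.73 and *Csf3r* at -0.62, which made 10. The median over the 10 was 1.44, with 9 above 0, against -0.01 and 49.4% over all genes. With library totals in place of TMM scaling, a setting chosen after seeing the data, the median of all genes lay at -0.25, the genes called were 3190 higher and 4690 lower in place of 3959 and 2956, and *Csf3r* was called lower (-0.68, adjusted p 0.0137).

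Against trachea, 8 of the 10 were higher in diaphragm: *Adgre1* (log2 fold change 1.17), *C1qb* (1.12), *Csf1r* (1.06), *Cx3cr1* (1.02), *C1qc* and *C1qa* (0.96 each), *Csf3r* (0.85) and *Mrc1* (0.73). *F13a1* (0.80, SE 0.33, adjusted p 0.0721) and *Cd163* (0.59, SE 0.58) were not called, and without trachea wt replicate 3 *F13a1* was (1.27, adjusted p 0.000493). *F13a1* was also called by DESeq2 (0.83, adjusted p 0.0225), with a replicate block in edgeR (0.95, adjusted p 0.0426) and with 1 fit for the table (0.86, adjusted p 0.0114). The *Csf3r* call, at an adjusted p of 0.0277, was lost in 5 of the 8 fits that left out 1 library, namely those without trachea wt replicate 1, 2 or 4 or diaphragm wt replicate 2 or 3 (adjusted p 0.0523 to 0.0639). The median over the 10 was 0.96 and all 10 were above 0, against -0.04 and 47.1% over all genes. With library totals the median of all genes lay at -0.26, the calls were 2074 higher and 5026 lower in place of 2791 and 3621, and *Mrc1* (0.51) and *Csf3r* (0.63) were no longer called.

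Wt diaphragm libraries also held transcripts of hepatocytes. The 9 hepatocyte genes summed to 2119, 1991, 11130 and 2424 TPM in wt replicates 1 to 4, against at most 286 in any wt library of the other contexts, and all 9 were higher than in lung (median log2 fold change 8.09) and than in trachea. Wt replicate 3, with the highest hepatocyte sum, had the lowest *Csf1r* of the 4 (36.3 TPM). The 14 neutrophil genes summed to 31.3, 43.5, 172 and 34.6 TPM in the same libraries, with 7 of 10 tested higher than in lung, where 20.9% of all genes were. Of the genes known from fetal liver macrophages, *Vsig4* stood at 0.0882 ± 0.0678 TPM and *Timd4* at 1.01 ± 0.72 (n = 4), the latter from 0.639 to 2.08. Low as it was, *Timd4* was called higher in diaphragm than in lung and than in trachea. It led the further macrophage genes described below in each of these comparisons. The part of liver-derived transcripts in the macrophage genes was not tested.

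**Figure D2:**
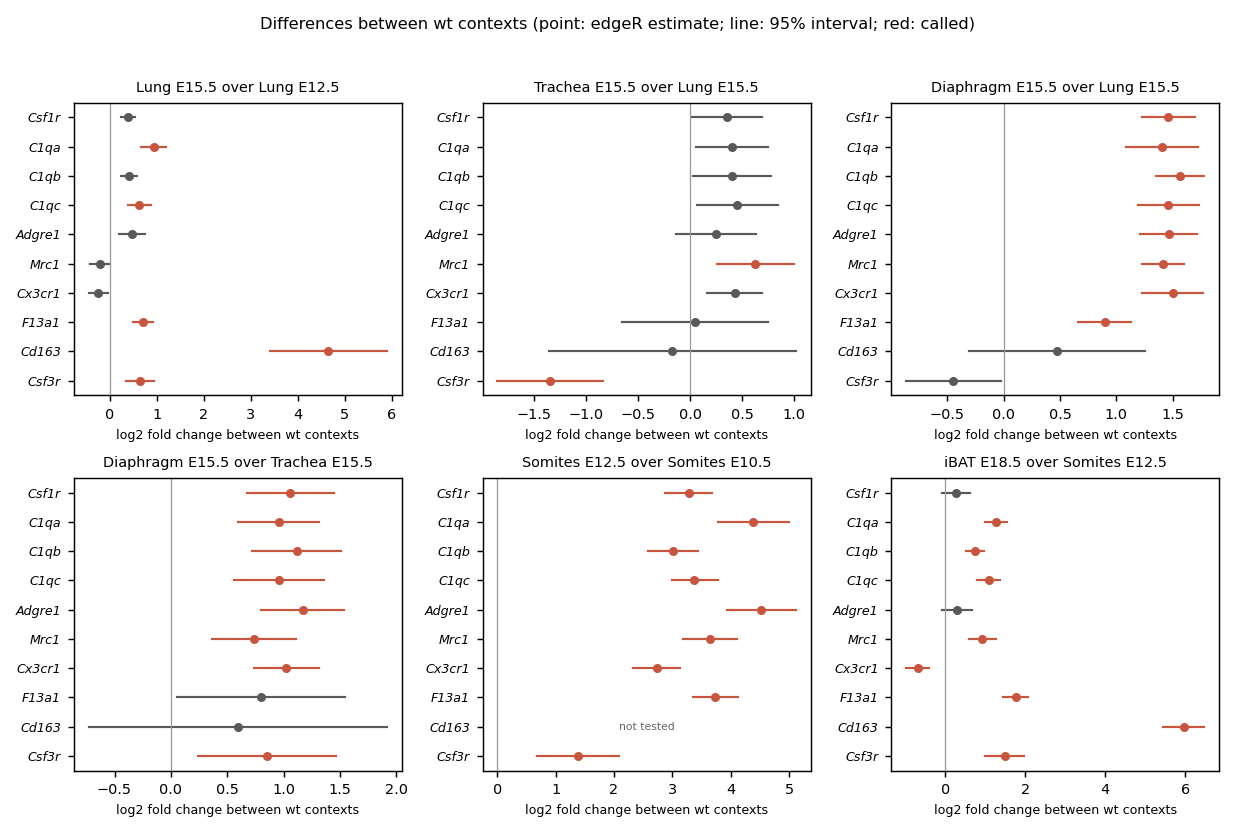
Log2 fold change of each of the 10 genes in 6 comparisons of wt contexts, with lines for the 95% confidence interval and red for calls. In somites all 9 genes tested lie at 1.38 or more, and diaphragm lies above trachea for all 10.

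In wt somites, 24.1% of 19773 genes were called higher at E12.5 than at E10.5, and all 9 macrophage genes tested were. *Adgre1* rose by a log2 fold change of 4.52 (SE 0.27), *C1qa* by 4.39 (SE 0.28), *F13a1* by 3.74 (SE 0.18), *Mrc1* by 3.64 (SE 0.21), *C1qc* by 3.38 (SE 0.18), *Csf1r* by 3.28 (SE 0.19), *C1qb* by 3.01 (SE 0.20), *Cx3cr1* by 2.73 (SE 0.19) and *Csf3r* by 1.38 (SE 0.33), with adjusted p values of 0.00229 or lower. *Adgre1*, for instance, went from 0.971, 0.310, 0.294 and 0.684 TPM to 12.47, 12.75, 15.25 and 14.67. No wt library at E10.5 reached the lowest of E12.5 for any of the 9, and the share of all genes for which this held is not given. *Cd163*, below the expression filter in both stages, was at 0 in all wt libraries at E10.5 and at 0.388, 0.195, 0.467 and 0.375 TPM at E12.5. All 9 calls held when any 1 library was left out. The median over the 9 was 3.38, against -0.04 over all genes.

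Wt iBAT at E18.5 was compared with wt somites at E12.5, which contain precursors of brown fat. Here 66.3% of 19369 genes were called in either direction, 31% of all tested being higher in iBAT, and the median of all genes was -0.16. *Cd163* had the largest difference of the 10 (log2 fold change 5.97, SE 0.24, adjusted p 4.59e-12). *F13a1* (1.77), *Csf3r* (1.49), *C1qa* (1.27), *C1qc* (1.09), *Mrc1* (0.93) and *C1qb* (0.75) were also higher in iBAT, and *Cx3cr1* was lower (-0.69, SE 0.13, adjusted p 0.000211), at 6.16, 5.26, 6.01, 3.70 and 6.20 TPM against 17.5, 20.1, 22.4 and 21.3. *Csf1r* (0.26, 95% interval -0.09 to 0.61) and *Adgre1* (0.30, -0.07 to 0.66) were not called.

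These values depended on how the libraries were scaled. With library totals in place of TMM scaling, the median of all genes was -0.80, 73.6% of genes were called (4102 higher and 10160 lower in place of 6002 and 6839), and 5 of the 10 macrophage genes were: *Cd163* (5.33), *F13a1* (1.13), *Csf3r* (0.85), *C1qa* (0.63) and *Cx3cr1* (-1.33). *C1qb* (0.10), *C1qc* (0.44) and *Mrc1* (0.29) were then no longer called, and *Csf1r* (-0.38) and *Adgre1* (-0.35) took the opposite sign without being called. On the TPM scale, which also uses totals, the wt mean of *Csf1r* was 14.7 in iBAT and 28.3 in somites, and that of *C1qb* 47.7 and 65.5. A change of scaling moves the log2 fold changes of all genes by about the same amount. The order of the genes, with *Cd163*, *F13a1*, *Csf3r* and *C1qa* at the top and *Cx3cr1* at the bottom, could therefore not differ between the settings.

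Ratios of the TPM of each gene to that of *Csf1r* in the same library remove the overall level. They are a description, without a test. The *Cx3cr1* ratio averaged 1.02 in wt lung at E12.5 and 1.06 in somites at E10.5, 0.66 to 0.72 in lung at E15.5, trachea, diaphragm and somites at E12.5, and 0.38 in iBAT, where all 5 libraries (0.340 to 0.416) lay below every other wt library (0.534 or higher). The *F13a1* ratio was 2.75 ± 0.35 in iBAT (n = 5) against means of 0.71 to 1.45 elsewhere. The *Cd163* ratio was 0.67 ± 0.10 in iBAT and at most 0.0781 in any wt library of the other contexts. *C1qa* had its lowest ratio in somites at E10.5 (0.70 ± 0.32, n = 4) and its highest in iBAT (3.25 ± 0.55, n = 5).

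The *Csf3r* ratio divided the wt contexts differently. It was 0.26 ± 0.03 in lung at E15.5, 0.22 ± 0.03 in lung at E12.5, 0.22 ± 0.07 in somites at E10.5 and 0.15 ± 0.03 in iBAT, and 0.08 ± 0.02 in trachea, 0.07 ± 0.03 in diaphragm and 0.06 ± 0.02 in somites at E12.5. All 8 wt lung libraries (0.181 to 0.298) lay above every wt library of trachea and diaphragm (0.115 or lower).

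**Figure D3:**
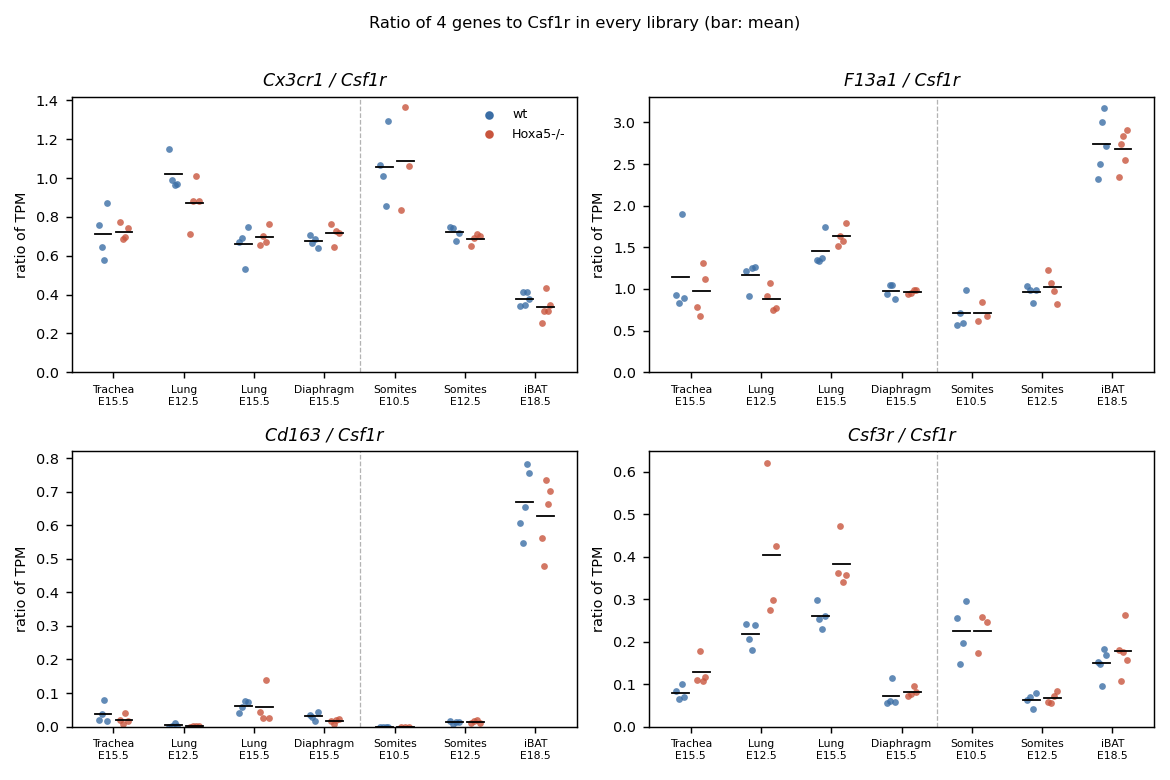
TPM of *Cx3cr1*, *F13a1*, *Cd163* and *Csf3r* divided by that of *Csf1r* in the same library (linear axes that start at 0), by context, with 1 point per library, wt in blue, *Hoxa5*-/- in red and a bar at each group mean. The iBAT libraries lie highest for *Cd163* and *F13a1* and lowest for *Cx3cr1*, and both lung stages lie above trachea and diaphragm for *Csf3r* in wt.

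Within groups most of the genes varied together, apart from *Csf3r* in the respiratory tissues and, to a lesser degree, *Cd163* in somites and iBAT. Deviations of log2 CPM (counts scaled to the library total) from the group mean were correlated between genes, as a description without a test, since points share library, depth and cell makeup. The median Pearson r of each gene was taken over the others of 8 genes, with *Cd163* and *Csf3r* left out as partners. Over the 32 libraries of trachea, lung and diaphragm, this median was 0.70 to 0.82 for the 8 genes. It was 0.58 for *Cd163* but 0.15 for *Csf3r*, whose highest r was 0.30. Without *Hoxa5*-/- replicate 1 of lung at E12.5 the 8 genes had median r of 0.43 to 0.78 and *Csf3r* of 0.18. Over the 25 libraries of somites and iBAT the medians were 0.56 to 0.90 for the 8 genes, 0.65 for *Csf3r* and 0.34 for *Cd163*. The closest pairs were *C1qb* with *C1qc* (0.95 in the respiratory tissues) and *Mrc1* with *F13a1* (0.97 in somites and iBAT).

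Among 21112 genes of the respiratory tissues, those closest to *Csf1r* were *Cyth4* (r 0.87), *C1qb* (0.87), *C1qa* (0.86), *Ccr1* (0.85) and *Cx3cr1* (0.85). Those closest to *Mrc1* were *F13a1* (0.84), *Adgre1* (0.82), *Fcrls*, *Ms4a6b* and *Cenpj*, and those closest to *F13a1* were *Ms4a6b* (0.85), *Mrc1*, *Hk3*, *Sod3* and *Msr1*. *Csf3r* had *Gm38103* (0.69), *Arl5c*, *Platr7*, *2010204K13Rik* and *Hmox1* (0.66), and none of the other 9 macrophage genes. Without *Hoxa5*-/- replicate 1 of lung at E12.5 (n = 31), *Csf1r* was closest to *Mmp23* (0.86), with *C1qb* and *C1qc* the other macrophage genes among its first 5. There *Mrc1* and *F13a1* were each other's closest gene (0.84), and *Csf3r* had the same 5 genes, led by *Gm38103* (0.74). Among 21308 genes of somites and iBAT, *Csf1r* was closest to *Nckap1l* (0.91), *Pik3cd*, *Irak3*, *Magi2* and *Cx3cr1*, and *Mrc1* to *F13a1* (0.97), *Cd53*, *Ldlrad4*, *Cx3cr1* and *Igf1*. *F13a1* was closest to *Mrc1*, *Nckap1l*, *Fndc1*, *Irak3* and *Ly86*, and *Csf3r* to *Mitf* (0.89), *C3ar1*, *Atp1b2*, *Mapkbp1* and *Selplg*.

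Loss of *Hoxa5* was then examined in each context by comparing mutant with wt libraries. No macrophage gene was called in any of the 7 contexts by edgeR. Genes called over the whole table made up 0.0156% in trachea, 0.0798% in lung at E12.5, 0.124% in lung at E15.5, 0.594% in diaphragm, 0.0215% in somites at E10.5, 0.00529% in somites at E12.5 and 0.00657% in iBAT, so that even among all genes few passed. Of the 65 tests of macrophage genes, 6 had an unadjusted p under 0.05, against 7.6% of the tests of all genes: *Csf3r* in both lung stages, *Mrc1* and *F13a1* in lung at E15.5, *Cx3cr1* in trachea and *Cd163* in diaphragm. DESeq2 called 2 of the 65, *Csf3r* at each lung stage. A p above the threshold does not show that the levels were alike, and the intervals give the sizes that remain possible.

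**Figure D4:**
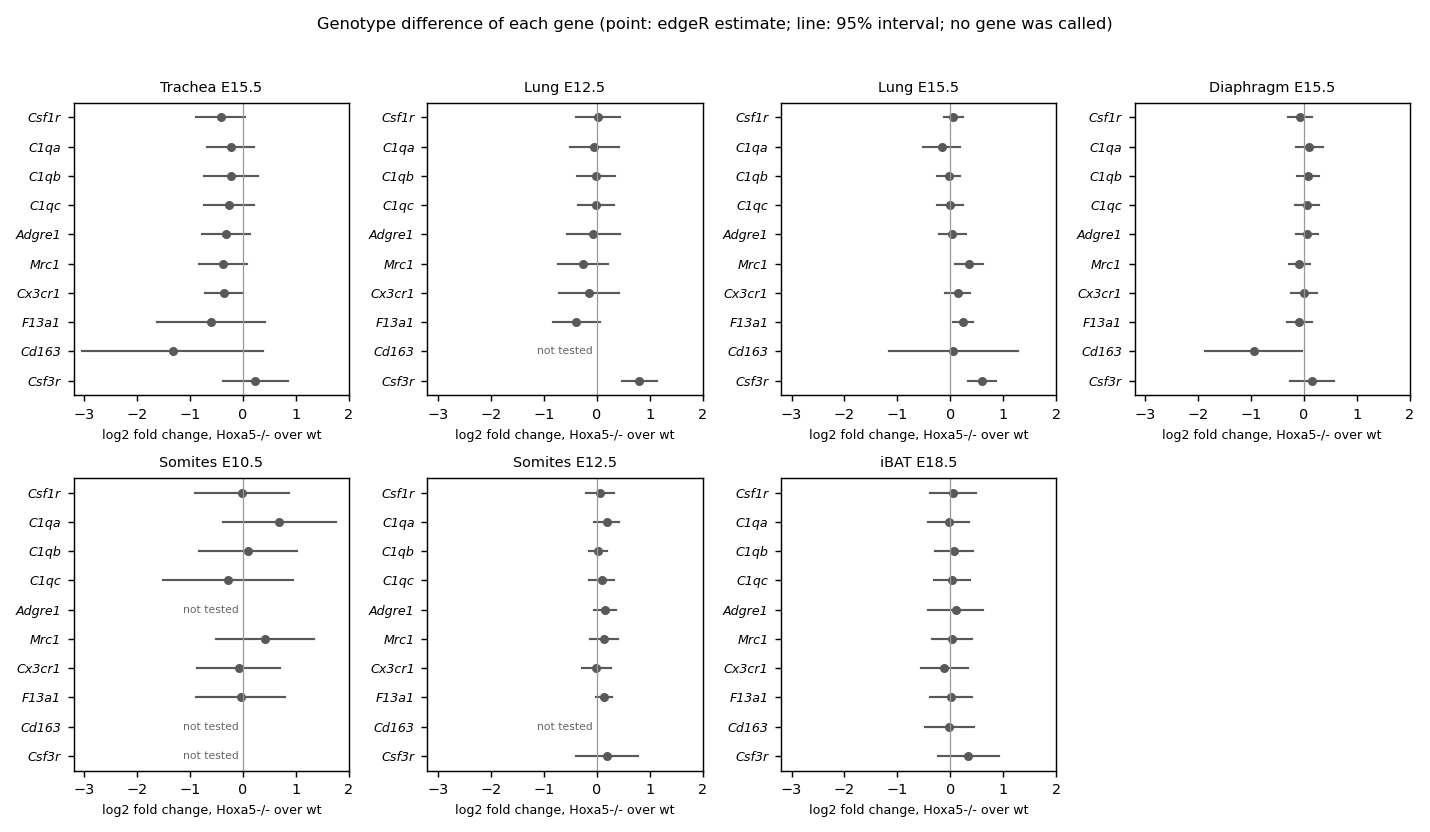
Log2 fold change of *Hoxa5*-/- over wt for each of the 10 genes in each context, with lines for the 95% confidence interval from edgeR and genes below the expression filter marked as not tested. None was called, and *Csf3r* lies at 0.80 in lung at E12.5 and at 0.61 in lung at E15.5 with intervals above 0.

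*Csf3r* had the lowest p of the 10 genes in both lung stages. In lung at E12.5 it was at 3.38, 3.0, 2.77 and 3.33 TPM in wt and at 4.71, 4.65, 5.62 and 6.80 in *Hoxa5*-/-, and the genotypes did not overlap. The log2 fold change was 0.80 (SE 0.15, 95% interval 0.47 to 1.14), with an adjusted p of 0.122 by edgeR and 0.000957 by DESeq2, which called 0.462% of the genes tested. In lung at E15.5 it was at 5.83, 4.998, 4.67 and 4.52 TPM in wt and at 7.60, 8.70, 7.20 and 5.22 in *Hoxa5*-/-. There 3 of the 4 mutants lay above every wt library and the fourth, replicate 4, lay within the wt range. Without it the log2 fold change was 0.62 (95% interval 0.32 to 0.92, adjusted p 0.341 by edgeR). The log2 fold change was 0.61 (SE 0.12, 95% interval 0.34 to 0.87), with an adjusted p of 0.152 by edgeR and 0.00201 by DESeq2, which called 0.467% of the genes. Over the other edgeR settings without a replicate block the adjusted p ran from 0.0701 to 0.134 in the earlier stage and from 0.138 to 0.316 in the later one. With a replicate block, although the numbers were not shown to pair the libraries, it was 0.406 in the earlier stage and 0.0413 in the later, where *Csf3r* was then called. When each library was left out in turn the log2 fold change stayed between 0.70 and 0.88 at E12.5 and between 0.55 and 0.69 at E15.5.

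The *Csf3r* values in the other contexts were 0.23 in trachea (95% interval -0.38 to 0.84), 0.16 in diaphragm (-0.26 to 0.58), 0.20 in somites at E12.5 (-0.38 to 0.78) and 0.34 in iBAT (-0.23 to 0.91), and somites at E10.5 were below the expression filter. The genotype difference in lung did not differ detectably between the stages (difference of log2 fold changes -0.19, 95% interval -0.58 to 0.20). *Csf3*, which encodes the ligand G-CSF, stayed at a group mean of 0.42 TPM or lower in every group. The 14 neutrophil genes summed to 6.04 to 15.3 TPM in wt and 7.07 to 12.1 in mutant lung at E12.5 (medians 9.39 and 8.67), overlapping, and to 8.89 to 44.3 and 5.84 to 70.6 at E15.5 (medians 14.8 and 22.5). Of these genes 3 were tested at E12.5 and 5 at E15.5, and none was called by edgeR. At E15.5 their sum was highest in *Hoxa5*-/- replicate 3 (70.6 TPM) and lowest in *Hoxa5*-/- replicate 2 (5.84), the library with the highest *Csf3r* (8.70 TPM). The part of neutrophil RNA in the *Csf3r* values was not tested.

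Relative to *Csf1r*, *Csf3r* lay higher in every mutant than in every wt library in both lung stages and trachea. The ratio ran from 0.181 to 0.242 in wt and 0.275 to 0.620 in *Hoxa5*-/- lung at E12.5 (0.425 at most without replicate 1), from 0.229 to 0.298 and 0.340 to 0.471 in lung at E15.5, and from 0.0646 to 0.1003 and 0.108 to 0.177 in trachea. Among the ratios of all genes tested to *Csf1r*, 0.524% lay higher in every mutant in lung at E12.5, 0.653% in lung at E15.5 and 3.58% in trachea. In diaphragm, both somite stages and iBAT the genotypes overlapped for *Csf3r*. Of 62 pairs of ratio and context, 4 were without overlap, against 2.23% of those of all genes tested, namely these 3 and *C1qa* over *Csf1r* in diaphragm (1.94 to 2.05 in wt and 2.21 to 2.31 in *Hoxa5*-/-). The ratio was chosen for description after its values were seen and was not tested.

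**Figure D5:**
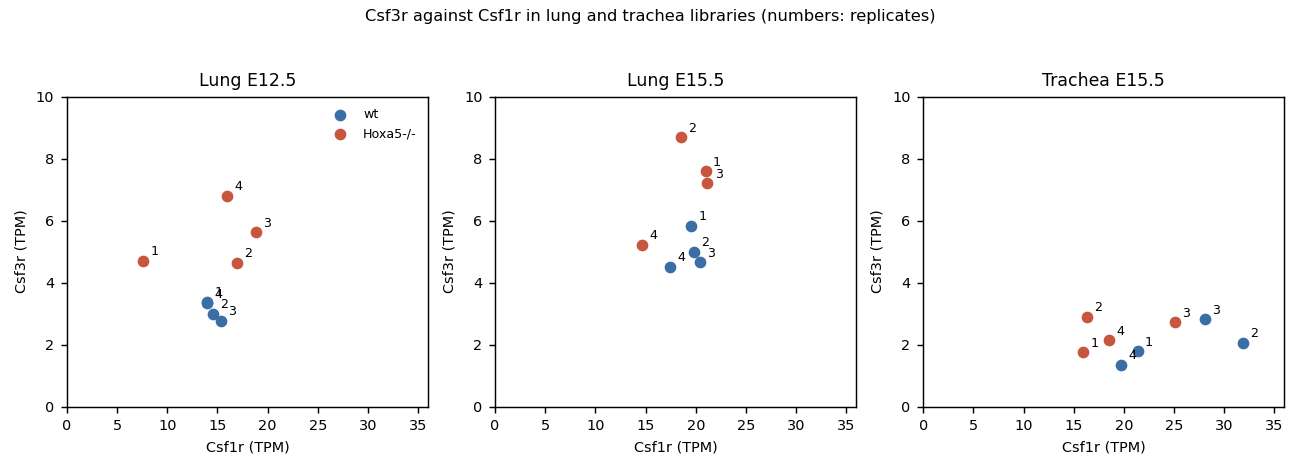
*Csf3r* TPM against *Csf1r* TPM (linear axes that start at 0) in each library of both lung stages and trachea, with wt in blue, *Hoxa5*-/- in red and replicate numbers beside the points. In each panel every mutant library has a higher *Csf3r* for its *Csf1r* than every wt library.

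In lung at E12.5, *Hoxa5*-/- replicate 1 was low in all 8 of the other genes tested, at 0.362 to 0.606 of the median of the other 3 mutants, while *Csf3r* was at 0.839 of it. Its 10 genes summed to 83.1 TPM, against 147.1 to 179.8 in the other mutants and 146.5 to 165.3 in wt. The same library held 139400 TPM of 10 erythroid genes, against 19420 to 26180 in the other mutants and 20610 to 38920 in wt. The share of erythroid RNA in the lower values was not tested. With this library the median log2 fold change over the 9 genes tested was -0.05, with 2 above 0, and without it 0.12, with 7 above 0. *Csf1r*, at 7.60, 16.9, 18.8 and 16 TPM in mutants and 13.96, 14.6, 15.3 and 13.98 in wt, had a log2 fold change of 0.03 (95% interval -0.39 to 0.45) with it and 0.22 (0.05 to 0.39, adjusted p 0.42) without it. *Csf3r* was at 0.80 and 0.82 (adjusted p 0.133).

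In lung at E15.5 *Mrc1* was at 21.99, 20.95, 18.8 and 23.5 TPM in wt and at 25.99, 26.8, 24.2 and 23.8 in *Hoxa5*-/-. Every mutant lay above every wt library, and the log2 fold change was 0.36 (SE 0.12, 95% interval 0.09 to 0.63, adjusted p 0.585). Without *Hoxa5*-/- replicate 4 it was 0.24 (0.04 to 0.44, adjusted p 0.882). *F13a1* was at 0.24 (0.05 to 0.42, adjusted p 0.65) with it and 0.17 without, and the other genes had intervals that included 0, from -0.17 for *C1qa* to 0.14 for *Cx3cr1* apart from *Cd163*, whose interval ran from -1.16 to 1.27. The median over the 10 was 0.06, with 7 above 0. Across the 7 contexts, 2 of the 70 combinations of gene and context had no overlap between genotypes, *Csf3r* in lung at E12.5 and *Mrc1* in lung at E15.5. Over all genes tested in the 7 contexts 4.07% had none, so the share among the macrophage genes was not above that of all genes.

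In trachea 9 of the 10 genes had a negative log2 fold change, with a median of -0.35, against 0.002 over all genes, of which 50.55% were above 0. Since most of these genes varied together within groups, the shared sign does not stand for separate observations. *Csf1r* was at 21.4, 31.8, 28.1 and 19.7 TPM in wt and at 15.9, 16.3, 25.1 and 18.49 in *Hoxa5*-/-, overlapping, with a log2 fold change of -0.42 (SE 0.20, 95% interval -0.88 to 0.04, adjusted p 0.762). *Cx3cr1* was at -0.36 (-0.72 to -0.01, adjusted p 0.736), *Mrc1* at -0.38, *F13a1* at -0.61 and *Cd163* at -1.33 (-3.05 to 0.38). *F13a1* was highest in replicate 3 of both genotypes, at 53.3 TPM in wt and 33.0 in *Hoxa5*-/-, against 11.1 to 26.5 in the other 6 libraries. These 2 libraries also had the highest sum of 8 mast cell genes in their genotype (73.2 and 38.3 TPM) and the highest *Cd163* (2.19 and 0.996). The 12 megakaryocyte genes summed to 63.2 to 102.5 TPM in wt and 44.7 to 78.0 in mutant trachea, and the 7 lymphoid genes to 1.16 to 4.13 and 3.38 to 10.3. The 5 skeletal muscle genes stood at 3643 TPM in *Hoxa5*-/- replicate 3 and at 917 in wt replicate 1, against 166 or less in the other 6. No gene of these lists was called in trachea, and their part in the values of the macrophage genes was not tested.

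In diaphragm, somites and iBAT the members' medians lay close to 0. In diaphragm the median was 0.03, with 6 of 10 above 0, and *Csf1r* was at 44.8, 49.5, 36.3 and 41.2 TPM in wt and 41.2, 43.8, 37.2 and 42.2 in mutants (log2 fold change -0.07, 95% interval -0.30 to 0.15). *Cd163* there was at 1.55, 1.34, 0.598 and 1.78 TPM in wt and at 0.722, 0.345, 0.742 and 0.954 in mutants (-0.94, -1.86 to -0.03, adjusted p 0.368). The hepatocyte sums of the mutant diaphragms were 2658, 471, 13570 and 11590 TPM. Replicate 3 had the lowest *Csf1r* (37.2 TPM), while replicate 4, with a hepatocyte sum of 11590 TPM, had 42.2 TPM of it. For the 8 genes other than *Cd163* and *Csf3r*, every interval in diaphragm lay between -0.32 (the lower bound of *F13a1*) and 0.35 (the upper bound of *C1qa*).

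In somites at E12.5 the median was 0.14, with 8 of 9 above 0, and the 9 log2 fold changes ran from -0.004 for *Cx3cr1* to 0.20 for *Csf3r*. At E10.5, where 7 genes passed the filter, the median was -0.02 and the intervals were wide, that of *Csf1r* running from -0.91 to 0.87. The 3 mutants there spread over 5.28, 2.16 and 1.23 TPM of *Csf1r*. In iBAT the median was 0.03, with 7 of 10 above 0, and *Cd163* was at 12.54, 5.77, 12.48, 6.96 and 8.62 TPM in mutants, overlapping wt, with a log2 fold change of -0.02 (95% interval -0.49 to 0.46). Same-numbered iBAT libraries of both genotypes share a leading number in the labels, whose meaning is not given. Replicates 4 and 5 also share theirs, so the replicate number divides the libraries more finely than the label does. With the replicate number as a block, the 10 log2 fold changes ran from -0.14 to 0.29 and none was called (lowest adjusted p 0.999 by edgeR).

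Whether the genotype difference itself varied between contexts was tested with interaction terms, and no macrophage gene was called in any of the 5 by edgeR or DESeq2. Of 49 such tests, 7 had an unadjusted p under 0.05, against 8.49% of those of all genes, for *Mrc1* in 3, *F13a1* in 2 and *Cx3cr1* and *Csf1r* in 1 each. Between the lung stages the difference of log2 fold changes was 0.62 for *Mrc1* and 0.62 for *F13a1* (adjusted p 0.93 each by edgeR), and 0.42 and 0.44 without *Hoxa5*-/- replicate 1 at E12.5. Over all genes, 0.0267% were called between the lung stages, 0.00502% between trachea and lung at E15.5, 0.688% between diaphragm and lung, 0.439% between diaphragm and trachea and 0.0147% between the somite stages. Between trachea and lung at E15.5 the genotype difference was lower in trachea for all 10 genes, with a median of -0.43 against -0.003 over all genes, of which 49.2% were above 0. Here too most of the 10 varied together across the same libraries, so the shared sign does not stand for separate observations. *Mrc1* differed by -0.75 there (95% interval -1.26 to -0.23, adjusted p 0.668), *Csf1r* by -0.49 (-0.96 to -0.01, adjusted p 0.969) and *Csf3r* by -0.38 (-0.99 to 0.22, adjusted p 1.0). Without *Hoxa5*-/- replicate 4 of lung at E15.5, *Mrc1* differed by -0.63 (-1.15 to -0.11) and *Csf1r* by -0.47 (-0.99 to 0.06). The comparison shares the lung libraries at E15.5 with that between diaphragm and lung, where *Mrc1* differed by -0.45 (-0.78 to -0.12, adjusted p 0.335).

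The genes around CSF1 signalling and macrophage identity were counted in the same fits, from lists chosen with earlier results of these data known. None of the 12 genes of the CSF1 axis and the lineage factors (among them *Csf1*, *Il34*, *Spi1*, *Irf8*, *Runx1* and *Tyrobp*) was called between genotypes in any context, with 10 to 12 tested. *Spi1*, which encodes PU.1, was at 5.18 ± 0.42 TPM in wt and 4.66 ± 1.91 in *Hoxa5*-/- lung at E12.5 (5.39 ± 1.52 without replicate 1, n = 3) and at 8.53 ± 0.65 and 8.71 ± 1.30 in diaphragm (n = 4 each). *Csf1*, the main ligand of CSF1R, followed the order of its receptor at the extremes, with wt means of 29.8 ± 4.94 TPM in diaphragm and 4.96 ± 0.62 in somites at E10.5 (n = 4 each). *Il34*, the other ligand, was at 0.431 ± 0.175 TPM in wt lung of E12.5, against 4.08 ± 1.75 at E15.5 (n = 4 each).

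Of 26 further macrophage genes, 14 to 24 were tested per context and 1 was called between genotypes. *Tlr2*, a receptor for bacterial lipoproteins, fell by 1.55 on the log2 scale in lung at E12.5 (SE 0.22, adjusted p 0.0377 by edgeR), from 8.86, 4.76, 5.89 and 7.89 TPM in wt to 1.76, 1.96, 2.98 and 2.47 in *Hoxa5*-/-, without overlap. The call was kept when wt replicate 2 was left out and lost when any other library was (adjusted p up to 0.17). In the list of lymphatic and sinusoidal endothelium, *Lyve1*, a hyaluronan receptor also made by some macrophages, and *Stab2*, a scavenger receptor of sinusoids, fell in lung at E15.5. *Lyve1* went from 84.1, 100.3, 130 and 87.4 TPM in wt to 24.96, 31.2, 24.3 and 26.7 in mutants (log2 fold change -1.79, SE 0.18, adjusted p 0.0088). Its call was lost without wt replicate 2 or mutant replicate 1 or 2 (adjusted p up to 0.0586). *Stab2* went from 10.7, 10.47, 13.98 and 11.2 TPM to 3.43, 3.68, 5.51 and 2.19 (-1.57, SE 0.18, adjusted p 0.0126), and its call was lost without wt replicate 1 or 2 or mutant replicate 1, 2 or 4 (adjusted p up to 0.0818). The 8 blood endothelium genes, of which none was called, summed to 1167 to 1400 TPM in wt and 646.5 to 1089 in mutant lung at E15.5, without overlap, and lowest in *Hoxa5*-/- replicate 4. The part of endothelial RNA in these values was not tested. The other members of that list, the monocyte, mast cell, neutrophil, megakaryocyte, lymphoid, erythroid, blood endothelium, hepatocyte, brain microglia and complement lists had no gene called between genotypes.

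Between wt contexts, the further macrophage genes gave counts of calls beside those of the 10. Over all genes, 24.1% were called higher in somites at E12.5 than at E10.5. In lung 15.4% of all genes were called higher and 9.15% lower at E15.5 than at E12.5. In somites from E10.5 to E12.5, 20 of 21 rose, among them *Ctss* (log2 fold change 3.53), a lysosomal protease, and *Trem2* (3.19), a lipid receptor, and all 11 of the CSF1 axis list that were tested rose, among them *Runx1* (3.49), *Cebpa* (3.39) and *Tyrobp* (2.69). *Ms4a7* was at 0 in every wt library at E10.5 and at 1.202 ± 0.32 TPM at E12.5 (n = 4). In lung from E12.5 to E15.5, 9 of 20 rose, led by *Lyz2* (3.12), *Ctsc* (1.95) and *Folr2* (1.48), and *Dab2* fell by 0.68 on the log2 scale. Of the CSF1 axis list 6 of 12 rose there, led by *Il34* (3.16), *Cebpa* (2.81) and *Runx1* (1.33).

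In diaphragm 17 of 24 of the further macrophage genes were higher and 1 was lower than in lung, led by *Timd4* (2.96), *Ms4a7* (2.28) and *Siglec1* (2.02), a sialic acid receptor. Against trachea 13 were higher and 2 lower, led by *Timd4* (3.91), *Siglec1* (1.89) and *Trem2* (1.51). In trachea 4 of 21 were higher and 1 lower than in lung, led by *Tlr4* (1.85). In iBAT 11 of 22 were higher and 2 lower than in somites at E12.5, led by *Lyz2* (3.0), *Siglec1* (2.92) and *Folr2* (2.66), the folate receptor of resident macrophages, which stood at 3.36 ± 1.12 TPM in wt iBAT (n = 5) and 1.22 ± 0.61 in wt somites at E12.5 (n = 4). Over all genes, 20.9% were called higher in diaphragm than in lung and 14.1% higher than in trachea. Between trachea and lung 30.2% were called in either direction. Between iBAT and somites 66.3% were, with 31% of all tested higher in iBAT. The dependence on scaling described for the iBAT comparison applies to its list genes too.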

How the data were processed

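Gene counts and TPM were analysed in 57 bulk libraries. Per the labels and the submitters' processing notes, reads were trimmed with Trim Galore 0.6.5, aligned to GRCm39 with STAR 2.7.9a and counted with featureCounts 2.0.3 over an edited GENCODE annotation. The deposited raw counts per gene were not normalized. The deposited TPM values, which the authors computed from these counts and exon lengths, came in a table for trachea, lung and diaphragm and another for somites and iBAT, and each test stayed within a table. In the latter, 2573 gene names were respelled to match the former.

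Groups came from the labels. Genes whose group mean reached 1 TPM in any group compared were tested with edgeR 4.0.16 (quasi-likelihood test, TMM scaling, R 4.3.3) over the samples of that comparison, with Benjamini-Hochberg adjustment over all genes tested. A gene was called at an adjusted p under 0.05 and a fold of at least 1.5. Correlations used log2 CPM of the deposited counts with TMM scaling and a prior count of 0.5. The scripts were tested on simulated data. Alternatives were DESeq2 1.42.0, its size factors, no filter, a filter of 10 counts, no fold minimum, a fit over the whole table, a replicate block, leaving out each library and, chosen after seeing the data, library totals in place of TMM. No pair of libraries held identical values. Intervals and floors cover counting error or the spread between libraries only.

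Named genes were the 10 chosen, *Hoxa5*, up to 3 called genes per list and direction by size of log2 fold change, and the 5 genes per table that correlated best with *Csf1r*, *Mrc1*, *F13a1* and *Csf3r*. *Csf3*, *Spi1*, *Csf1*, *Il34*, *Vsig4*, *Timd4* and *Ms4a7* were also given as context after their values were seen. The 10 genes and all lists were chosen with earlier results of these data known.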

Additional observations from a re-analysis of the deposited data

Results flagged for a closer look

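Values of the 10 genes and their sum were screened for a single library far from the rest of its group, in 142 sets of 4 or 5 libraries, where chance alone flags about 1 in 20. Of these, 3 were flagged. *C1qa* in *Hoxa5*-/- replicate 3 of trachea was at 62.9 TPM, with the next library at 42.4. The summed level of the 10 genes in wt replicate 3 of lung at E15.5 was 227.0 TPM, with the next at 210.8. The summed level in wt replicate 2 of somites at E10.5 was 14.1 TPM, with the next at 26.7. The low sums of *Hoxa5*-/- replicate 1 of lung at E12.5 (83.1 TPM) and *Hoxa5*-/- replicate 4 of lung at E15.5 (155.1 TPM) did not pass this screen, with gaps of 0.661 and 0.668 of the range of their groups.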

How the results depend on the processing

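No member changed sign with a call under any alternative run. Between genotypes the count of members called by edgeR was 0 in all 7 contexts, and DESeq2 gave 1 in lung at E12.5 and 1 in lung at E15.5, both *Csf3r*. Leaving out each library in turn gave 0 to 0 members between genotypes and in the interactions, 4 to 5 between the lung stages, 1 to 2 between trachea and lung (1 without trachea wt replicate 3 or lung wt replicate 3), 8 to 10 between diaphragm and lung, 7 to 9 between diaphragm and trachea, 9 to 9 in somites and 8 to 8 between iBAT and somites. Without a fold minimum 9 members were called between the lung stages, and with library totals in place of TMM 5 between iBAT and somites. Replicate numbers were not taken to pair the samples, since in every comparison the lowest correlation of same-numbered libraries was under 0.1. In iBAT, where same-numbered libraries share a leading number in the labels, the 5 correlations ran from 0.0544 to 0.113, and no member was called with the block. Those correlations cover all genes. The sum of the 10 genes in iBAT replicates 1 to 5 was 239.9, 194.3, 274.1, 172.7 and 265.8 TPM in wt. In mutants it was 290.5, 165.9, 285.5, 183.5 and 200.9. With the block the SE of the *F13a1* genotype difference in iBAT was 0.0754, in place of 0.185. A replicate block called *Csf3r* in lung at E15.5 (log2 fold change 0.61, adjusted p 0.0413), 1 member there, and 2 results of members moved past or below the threshold under it in all. Genes called over the whole table in trachea, both lung stages, diaphragm, both somite stages and iBAT numbered 3, 14, 22, 107, 4, 1 and 1 between genotypes by edgeR. They numbered 52, 81, 83, 406, 18, 2 and 4 by DESeq2, 1, 4, 104, 358, 0, 2 and 2 with the block, and 40, 18, 38, 355, 28, 2 and 3 with 1 fit per table. With library totals the calls in lung at E15.5 were 1 higher and 14 lower in place of 4 and 18, and in somites at E10.5 2 and 1 in place of 2 and 2. Groups of 3 to 5 libraries and 8 or fewer counts for *Cd163* in lung at E12.5 and 0 in somites at E10.5 limit what could be detected.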

Other observations

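Genes of cells that share markers with macrophages moved between wt contexts beside the 10. From E12.5 to E15.5 in lung, 2 of 3 monocyte genes tested rose, among them *Ccr2* (log2 fold change 5.56), the receptor that brings monocytes into tissue, as did 7 of 10 complement genes, among them *C1s1* (2.83) and *C1ra* (2.43), whose proteases assemble with C1q, and all 4 mast cell genes tested. Over the same interval 6 of 10 megakaryocyte genes fell, and 7 of 10 erythroid genes fell while 2 rose, where 9.15% of all genes tested fell and 15.4% rose. In iBAT against somites at E12.5, 6 of 6 mast cell genes tested were higher, led by *Tpsb2* (10.67), a mast cell tryptase, and 3 of 3 monocyte genes were. Of all genes tested there, 66.3% were called in either direction, 31% of all tested being higher in iBAT and the rest of those called lower. The dependence on scaling described for this comparison applies to these counts and to that of the microglia genes below. The 3 brain microglia genes summed to 6.87 to 9.19 TPM in wt iBAT and to 52.1 TPM or more in every other wt library, and 2 of the 3 were lower in iBAT than in somites. Those other libraries include somites at E10.5, where the 10 macrophage genes together summed to only 14.11 to 28.45 TPM. Which cells held the transcripts of these 3 genes was not tested, and their sum is not a measure of microglia. These values are a description, and their part in the macrophage genes was not tested.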
